A study of Mus musculus with 10 samples.

Results

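The comparison described here is that of ileum carrying an induced Sox2 transgene with ileum carrying the inducer alone, when both received doxycycline. Its members are 4 of the 10 arrays of the series, the 2 of TetON-Sox2 mice given doxycycline (Sox2 +DOX) and the 2 of mice that had rtTA but lacked the Sox2 transgene, also given doxycycline (rtTA +DOX), taken by genotype and treatment from the labels. TetON mice carry a gene that is transcribed when doxycycline binds the regulator rtTA. The mice were C57BL/6 and 6 to 8 weeks old. Both groups drank doxycycline at 2 mg/ml with 1% sucrose for 2 days, so drug, sugar, strain and age range are shared and the transgene differs. The promoter that drives rtTA, the cells in which the transgene is active, the sex of the mice and whether replicates are separate animals were left unstated by the labels. The p-values therefore measure the spread between replicate arrays, which may be technical. That spread was pooled over the 5 groups of all 10 arrays. Untreated TetON-Sox2 ileum (Sox2 -DOX, 2 arrays, no recorded sucrose) and ileum with both the Sox2 and the Oct4 transgenes given doxycycline (Sox2xOct4 +DOX, 2 arrays) serve below to place single results.

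Sox2 is a transcription factor of the pluripotent embryo that is also made in the embryonic foregut, in the epithelium that gives rise to oesophagus and stomach. The small intestine forms under the homeodomain factor Cdx2, and its absorptive cells, the enterocytes, carry a brush border of microvilli set with digestive enzymes and transporters. Stratified squamous epithelium, as in the oesophagus and the mouse forestomach, is built on keratins that differ from the simple keratins of enterocytes.

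Levels are given as the log2 of the processed signal relative to the 75th percentile of the same array, so that 0 is a bright probe and a difference of 1 is 2-fold. A gene is said to have risen, fallen or been called where the limma fit gave an adjusted p under 0.05. A fold is written as "at least" where neither array of the dim group was well above background, and then refers to the lowest signal well above background. Only 1 of the 2 dim arrays was well above background for Lipf, in rtTA +DOX, and for Aqp7, Cyp3a25, Enpp7, Slc30a10, St6galnac1 and Prf1, in Sox2 +DOX, so their sizes rest in part on a signal at background. Leaving out an array means repeating the fit without it. With 2 arrays a group, the number of arrays limits the precision, and the median standard error of a log2 difference was 0.393.

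The groups lay on different slides, read with different versions of the scanner software, so slide and transgene cannot be told apart in this comparison. Sox2 -DOX shared a slide with Sox2 +DOX, which allows a result to be set beside untreated ileum from the same slide. The controls on the 2 slides, rtTA +DOX and Sox2 -DOX, differed in slide, doxycycline, recorded sucrose and genotype together, and in sex-linked transcripts as given below. None of 19056 genes (0%) was called between them in the limma fit, with 1066 genes at an unadjusted p under 0.05. The count of called genes was 13 in a fit to only the 4 arrays of those groups and 11 without the Oct4 group. Eif2s3y and Lct, given below, lay far apart between these controls and were not called in the limma fit. The absence of calls therefore does not show that the controls were alike. Replicates correlated across probes with r = 0.973 in Sox2 +DOX and 0.983 in rtTA +DOX. Enterocyte and ileal markers were well above background on all 4 arrays. Vil1, of the microvillus core, stood at 6.59 and 7.01 with Sox2 and at 6.95 and 7.66 with rtTA alone, and the ileal bile acid transporter Slc10a2 at 3.31 and 3.61 against 4.72 and 4.79. The pancreatic gene Pnlip and the hepatic gene Alb were well above background on none of the 4 arrays. Of the other markers of those organs, the pancreatic Cpa1 and Prss2 were likewise well above background on none, and the hepatic Serpina1a had no value. Ttr and Cel were well above background on all 4. The hepatic gene Ttr stood at -3 and -1 with Sox2 and at -6.43 and -5.08 with rtTA. The pancreatic gene Cel stood at -4.02 and -4.58 against -5.09 and -4.71.

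The groups also differed in sex-linked transcripts. Eif2s3y, carried by the Y chromosome, stood at 1.61 and 2.06 in Sox2 +DOX and at -9.23 and -8.49 in rtTA +DOX, at least 380-fold apart (adjusted p = 0.034), and Ddx3y, Kdm5d and Uty were called in the same direction. Xist, the RNA that coats the inactive X chromosome, was at -7.41 and -6.01 in Sox2 +DOX and at 3.12 and 3.21 in rtTA +DOX. The Sox2 -DOX arrays lay with the Sox2 +DOX arrays, with Eif2s3y at 2.06 and 2.1. These transcripts split by group without overlap, so the animals' sex and the transgene cannot be told apart between Sox2 +DOX and rtTA +DOX. Each of the 5 calls was lost when any 1 of the 4 arrays was left out, with adjusted p-values of up to 0.21.

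In all, 617 genes were higher and 980 lower with Sox2, 3.24% and 5.14% of those tested and 8.38% together. The median change was 2.11 on the log2 scale among genes called higher and -2.21 among those called lower, against -0.04 over all genes tested, and 327 of the rises and 595 of the falls exceeded 4-fold. The groups' arrays did not overlap for each of the 1597 called genes, as for 63% of all genes tested. Of the calls 38.6% were higher, and 49.6% of 1904 with normexp correction and quantile normalization. The counts rested on single arrays. Without Sox2 +DOX replicate 1 the fit called 127 higher and 161 lower, without rtTA +DOX replicate 1 92 and 103, without rtTA +DOX replicate 2 210 and 199, and without Sox2 +DOX replicate 2 574 and 1100. A core of 84 genes higher and 80 lower was called with each of the 4 arrays left out in turn.

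**Figure D1:**
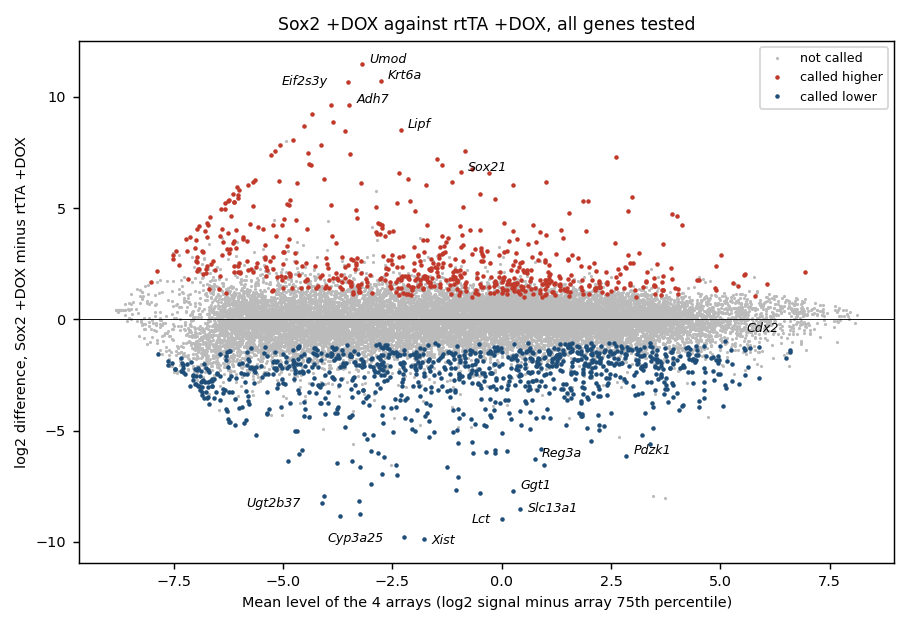
The log2 difference of Sox2 +DOX minus rtTA +DOX is plotted against the mean level of the 4 arrays for each of 19056 genes, with called genes in colour. Red points are the 617 genes called higher and blue points the 980 called lower.

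Of 15 Sox family members tested 1 was called higher and 1 lower, beside 3.24% and 5.14% of all genes tested. Sox21, of the B2 group of Sox genes, stood at 3.33 and 1.4 with Sox2 and at -3.57 and -4.92 with rtTA alone, 97.6-fold higher (log2 difference 6.61, SE 0.66, adjusted p = 0.0019). Both Sox2 arrays lay far above both control arrays, and the call was kept with any 1 array left out. Its probe lies at chr14:117117711-117117770 in build mm8. Sox6 fell 3.25-fold (adjusted p = 0.033), a call that any 1 array left out removed (adjusted p of up to 0.2).

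The transgene itself was not read. The probe named Sox2 (chr3:34843400-34843459, mm8) was well above background on none of the 10 arrays, with levels of -8.28 and -8.18 in Sox2 +DOX and -9.07 and -8.29 in rtTA +DOX. No label says whether it matches the transgene's transcript, and it therefore does not check the labels. Nanog and Pou5f1 (Oct4), other factors of the pluripotent state, were dim throughout, well above background on none of the 4 arrays. Cdx2 stood at 4.37 and 5.83 against 5.62 and 5.9, with overlapping groups. Its difference of -0.66 (SE 0.49, adjusted p = 0.41) was smaller than the gap between the Sox2 arrays, and it turned to 0.07 without Sox2 +DOX replicate 1.

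Genes of stratified and gastric epithelium were among the rises. Of 14 squamous keratins tested, 5 rose and none fell (background 3.24% higher), with a median log2 difference of 0.7. Krt6a, a keratin of stressed and regenerating stratified epithelium, stood at 3.07 and 2.1 with Sox2 and at -8.77 and -7.47 without, at least 641-fold higher (adjusted p = 0.0012). It was at background in both control arrays and bright in both Sox2 arrays. Krt75 stood at -3.37 and -3.21 against -7.52 and -6.55, at least 10.9-fold higher (adjusted p = 0.0015). Krt4, a keratin of the inner layers of the oesophagus, stood at -1.89 and 0.08 against -8.97 and -6.68, at least 57-fold higher (adjusted p = 0.014, and 0.11 without rtTA +DOX replicate 1). Krt79 and Krt6b completed the 5, the latter named after its value was seen. Krt79 rose 6.64-fold (adjusted p = 0.029), a call lost without any 1 of the 4 arrays (adjusted p of up to 0.17). Between 2 and 3 keratins were called with 1 array left out, 2 without rtTA +DOX replicate 1. Of the basal squamous markers, Krt5 stood at -4.35 and -4.79 against -5.47 and -5.1 and Krt14 at -2.45 and -4.8 against -4.4 and -4.29, and Trp63, the factor that specifies basal cells, was well above background on none of the 4 arrays. Krt13, another squamous marker, stood at 1.03 and 1.95 with Sox2 and at 0.79 and 1.18 with rtTA, with overlapping groups.

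Squamous differentiation genes other than keratins moved both ways, 5 of 26 rising and 2 falling, beside 3.24% of all genes higher and 5.14% lower. Ivl, a precursor of the cornified envelope, stood at -1.77 and -2.23 with Sox2 and at -9.15 and -7.24 without, at least 26.7-fold higher (adjusted p = 0.019). Fabp5, the epidermal fatty acid binding protein, rose at least 5.19-fold (adjusted p = 0.0066), Serpinb5 4.75-fold (adjusted p = 0.026) and Il1rn, the interleukin 1 receptor antagonist, 4.97-fold (adjusted p = 0.02). Fabp5 was called with any 1 array left out but not with normexp correction and quantile normalization (log2 difference 0.46, adjusted p = 0.062), and the other 3 were not called without at least 1 array (adjusted p of up to 0.14, 0.14 and 0.12). Anxa8, which rose, and Lypd3 and Evpl, which fell, complete the counts and were named after their values were seen. With 1 array left out, between 1 and 3 of the list rose. Among simple epithelial keratins Krt7 was the 1 called of 6 tested, beside 3.24% of all genes called higher. Krt7 rose 2.96-fold (adjusted p = 0.038), and the call was lost without any 1 array.

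Gastric genes rose at 3 of 15 members, with none lower, beside 3.24% of all genes called higher. Lipf, gastric lipase, stood at 3.11 and 0.76 with Sox2 and at -6.39 and -6.75 with rtTA, 363-fold higher (log2 difference 8.5, SE 0.71, adjusted p = 9.2e-04). Anxa10, an annexin of gastric epithelium, stood at -0.62 and -1.2 against -9.31 and -6.47, at least 56.7-fold higher (adjusted p = 0.0059). Ctse, cathepsin E of surface mucous cells, rose 3.64-fold (adjusted p = 0.038). Both Sox2 arrays exceeded both controls for each of the 3, as for every gene called higher. Lipf was called with any 1 array left out, Anxa10 reached an adjusted p of 0.05 without Sox2 +DOX replicate 1, and Ctse lost the call without any 1 array (adjusted p of up to 0.16). The secreted products Gkn1, Gkn2 and Pgc and the proton pump subunit Atp4b were well above background on none of the 4 arrays. The other stomach markers, Tff1 and Muc5ac, were so on all 4. Tff1 stood at -4.84 and -4.45 with Sox2, -5.4 and -5.13 with rtTA and -4.67 and -4.64 in untreated Sox2 ileum. Muc5ac stood at -4.82 and -4.46, -5.48 and -5.04, and -4.68 and -4.52 in the same order. The summed linear level of the list was 11.1 and 4.74 with Sox2 and 2.65 and 2.6 with rtTA. The number of rises was 1 without Sox2 +DOX replicate 1.

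Of 18 airway and oesophageal genes, 4 rose and 1 fell, beside 3.24% of all genes higher and 5.14% lower. Pax9, a paired-box factor of foregut endoderm, stood at -1.14 and -3.89 with Sox2 and at -8.96 and -8.58 without, at least 18.7-fold higher (adjusted p = 0.0046). Foxa1, a forkhead factor of endoderm, stood at 1.38 and 1.04 against -0.67 and -0.6, 3.59-fold higher (adjusted p = 0.015). Pax9 came up from background, whereas Foxa1 was measured in both groups. Cyp2a4 and Cyp2a5, closely related P450 enzymes, rose 123-fold and 109-fold (adjusted p = 0.022 and 0.025). The probe of either could bind the transcript of the other, which was not tested here, so they may not be separate rises. Aqp3, a water and glycerol channel, went the other way, standing at -2.31 and -0.96 against 2.04 and 2.94, 17.5-fold lower (adjusted p = 0.014). Pax9 was called with any 1 array left out, but not with normexp correction and quantile normalization (log2 difference 1.51, adjusted p = 0.072). The other 4 lost the call without at least 1 array, with adjusted p-values of up to 0.11 for Foxa1, 0.15 for Cyp2a4, 0.16 for Cyp2a5 and 0.098 for Aqp3. The rises numbered 1 without Sox2 +DOX replicate 1 and 1 without rtTA +DOX replicate 1.

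A further group of strong rises encodes enzymes of retinoids, alcohols and aldehydes. Adh7, an alcohol dehydrogenase that oxidises retinol in the upper digestive tract, stood at 1.41 and 1.26 with Sox2 and at -9.22 and -7.38 without, at least 269-fold higher (adjusted p = 2.3e-04). Aldh3a1, an aldehyde dehydrogenase of cornea and stomach, stood at 1.05 and 0.78 against -9.1 and -8.33, at least 201-fold higher (adjusted p = 2.1e-04). Both were at background with rtTA alone. Dhrs9, a retinol dehydrogenase, rose 19.4-fold (adjusted p = 8.8e-04) and Cyp26b1, which degrades retinoic acid, 43.1-fold (adjusted p = 9.2e-04). Each of these 4 genes was called with any 1 of the 4 arrays left out. Akr1c18, a hydroxysteroid dehydrogenase, rose at least 168-fold (adjusted p = 0.0096, and 0.087 without rtTA +DOX replicate 1). Across 34 alcohol and aldehyde dehydrogenases 6 rose and 5 fell, beside 3.24% of all genes higher and 5.14% lower. The median of the list was -0.08. The 5 that fell, Akr1b7, Aldh1l1, Rdh7, Aldh1a1 and Aldh4a1, were named after their values were seen, and none of the list fell without Sox2 +DOX replicate 1 or without either rtTA array.

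Other genes among the 20 largest rises are known from several tissues. Umod, the major urinary protein of the kidney, stood at 2.92 and 2.16 with Sox2 and at -9.27 and -8.59 without, at least 619-fold higher (adjusted p = 8.8e-04). The other renal genes Slc12a1 and Nphs1 were well above background on none of the 4 arrays. Slc37a2, a sugar-phosphate exchanger, stood at 3.09 and 2.84 against -4.48 and -4.75, 191-fold higher (adjusted p = 6.3e-04). Fetub, a fetuin of plasma, stood at 1.74 and 2.48 against -5.86 and -4.32, 147-fold higher (adjusted p = 0.0029). For these 3 genes the lower Sox2 array lay far above the higher control array. Teddm3 (at least 158-fold), Dynap (at least 130-fold), Nepn (at least 127-fold), Fmo1, a flavin monooxygenase (94.8-fold), and Ly6g6e (79.5-fold) also rose, and like those 3 were called with any 1 array left out. Wfdc18, a whey acidic protein (97.1-fold), Cxcl5, a neutrophil chemokine (at least 92.2-fold), and Slc16a12, of the monocarboxylate transporter family (72.6-fold), rose but lost the call without at least 1 array (adjusted p of up to 0.069, 0.08 and 0.12).

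A set of 4 short sequences was searched on both strands in the 250 bases upstream of RefSeq transcription starts (GRCm38.p6), as a description of these windows. They were CATTGTT (reverse complement AACAATG) for SOX factors, CAAAGTCCA (reverse complement TGGACTTTG) for HNF4, TTTATGG (reverse complement CCATAAA) for CDX factors and TGANTCA for AP-1. Of the 20 largest rises 13 had a promoter in the table, with 14 windows. The Lipf window (chr19:33960998-33961247, plus strand) was the 1 of them with the SOX letters. They begin there at positions -210 and -48 relative to the start, and are shown in capitals. Adh7 (chr3:138217523-138217772, plus strand) and Slc37a2 (chr9:37255739-37255988, minus strand) hold the AP-1 letters, in capitals, beginning at positions -25 and -107.
Lipf: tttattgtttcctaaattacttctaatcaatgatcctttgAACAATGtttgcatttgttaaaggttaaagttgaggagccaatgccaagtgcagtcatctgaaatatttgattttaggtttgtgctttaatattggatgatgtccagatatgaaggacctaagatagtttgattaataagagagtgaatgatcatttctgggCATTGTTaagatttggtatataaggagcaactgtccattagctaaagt
Adh7: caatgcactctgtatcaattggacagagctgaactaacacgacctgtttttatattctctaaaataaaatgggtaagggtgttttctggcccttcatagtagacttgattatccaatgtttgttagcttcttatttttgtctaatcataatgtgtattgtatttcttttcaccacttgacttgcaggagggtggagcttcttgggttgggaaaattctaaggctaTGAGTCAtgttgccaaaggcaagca
Slc37a2: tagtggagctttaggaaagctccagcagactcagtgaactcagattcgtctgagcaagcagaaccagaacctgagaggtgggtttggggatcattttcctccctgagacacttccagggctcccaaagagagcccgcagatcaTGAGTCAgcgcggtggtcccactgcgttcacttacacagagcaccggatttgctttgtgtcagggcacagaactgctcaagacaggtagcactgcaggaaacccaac

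The share of windows with each motif was set beside that of 15426 windows of the genes tested and of 32851 windows of all genes, for 453 windows of genes called higher and 877 of genes called lower. The SOX letters occurred in 2.43% of windows of genes called higher and 2.17% of those called lower, against 1.95% for genes tested and 3.29% for all genes. The CDX letters occurred in 1.77% of windows of genes called higher and 2.51% of those called lower, against 1.79% for genes tested and 2.43% for all genes. The AP-1 letters occurred in 7.73% of windows of genes called higher and 7.3% of those called lower, against 5.11% for genes tested and 6.75% for all genes. The HNF4 letters occurred in 0 windows of genes called higher and 1.25% of those called lower, against 0.408% for genes tested and 0.384% for all genes. A match describes the letters of these windows only.

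**Figure D2:**
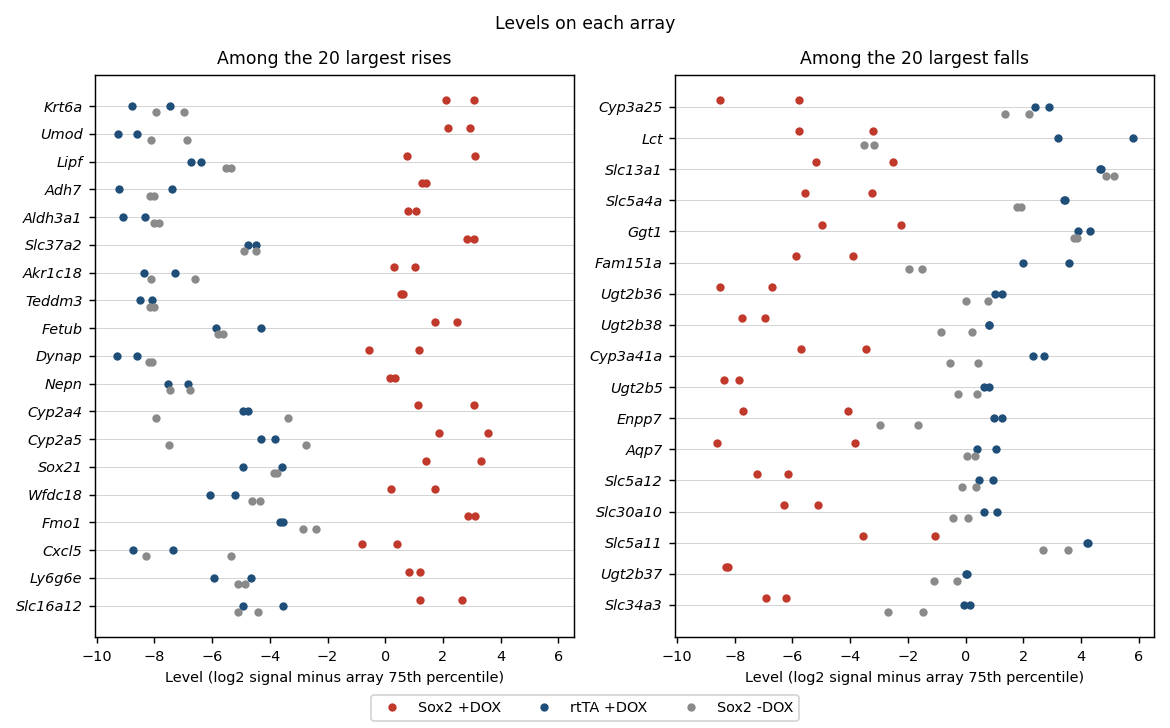
The level of the genes named in the text among the 20 largest called rises (left) and falls (right) is shown on each array, with Sox2 +DOX in red, rtTA +DOX in blue and Sox2 -DOX in grey. The 2 red points lie apart from the 2 blue points for each gene because this was required for a gene to be among them. Lct is the fall in which the grey points lie beside the red ones.

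Genes of the absorptive enterocyte were among the falls. Of 21 brush border enzymes tested 14 fell and none rose (background 5.14% lower), with a median log2 difference of -3.63. Ggt1, the gamma-glutamyl transferase that splits glutathione at the membrane, stood at -4.97 and -2.25 with Sox2 and at 4.32 and 3.89 with rtTA, 210-fold lower (log2 difference -7.72, SE 0.94, adjusted p = 0.004). Xpnpep2, a membrane aminopeptidase, fell 36.4-fold (adjusted p = 0.01), Asah2, neutral ceramidase, 12.4-fold (adjusted p = 0.0081) and Alpi, intestinal alkaline phosphatase, 21.8-fold (adjusted p = 0.017). Ggt1 kept its call with any 1 array left out, whereas the other 3 did not (adjusted p of up to 0.08, 0.07 and 0.12). The summed linear level of the list was 144 and 358.5 with Sox2 and 896.9 and 1189.4 with rtTA. With Sox2 +DOX replicate 1 left out 2 fell and with the other Sox2 +DOX array 16, against 1 without rtTA +DOX replicate 1 and 1 without rtTA +DOX replicate 2. In bulk tissue, fewer enterocytes and less RNA per enterocyte cannot be told apart.

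For some falls the controls themselves lay apart. Lct, lactase, stood at -5.77 and -3.2 with Sox2 and at 3.21 and 5.79 with rtTA, 506-fold lower (adjusted p = 0.015). Untreated Sox2 ileum stood at -3.53 and -3.16, beside the Sox2 +DOX values, and rtTA exceeded it by 7.84 (adjusted p = 0.44). Enpp7, the alkaline sphingomyelinase, stood at -7.72 and -4.08 with Sox2, at 1.26 and 0.99 with rtTA and at -1.66 and -2.96 in untreated ileum. Its fall against rtTA was 130-fold (adjusted p = 0.011), and the difference from untreated ileum was -3.59 (adjusted p = 0.086). Fam151a stood at -5.87 and -3.9 with Sox2, 1.98 and 3.6 with rtTA (204-fold lower, adjusted p = 0.0086) and -1.95 and -1.51 untreated. For these 3 genes the size of the fall depends on which control is taken, and each lost the call without at least 1 array (adjusted p of up to 0.11, 0.087 and 0.066).

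Of 18 genes of microvillus structure 11 fell and none rose (background 5.14% lower), with a median of -1.86. Pdzk1, a scaffold that holds transporters at the apical membrane, stood at -1.66 and 1.22 with Sox2 and at 6.01 and 5.83 with rtTA, 70.6-fold lower (adjusted p = 0.0058, and 0.056 without rtTA +DOX replicate 1). Slc9a3r1, a related scaffold, fell 4.63-fold (adjusted p = 0.019), Cobl, an actin nucleator, 3.63-fold (adjusted p = 0.018) and Myo1a, a motor of the brush border, 3.34-fold (adjusted p = 0.022). Their arrays did not overlap between groups, as for each of the 1597 called genes. These 3 calls were lost without at least 1 array (adjusted p of up to 0.15, 0.14 and 0.12). The falls numbered 2, 12, 0 and 2 without Sox2 +DOX replicate 1, Sox2 +DOX replicate 2, rtTA +DOX replicate 1 and rtTA +DOX replicate 2. Vil1, given above, was not called.

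Transporters gave the largest count of the lists, 23 of 34 enterocyte solute carriers lower and none higher (background 5.14% lower), with a median of -2.83. Sodium-coupled carriers of family 5 were among them. Slc5a4a stood at -5.56 and -3.25 with Sox2 and at 3.44 and 3.41 with rtTA, 228-fold lower (log2 difference -7.83, SE 0.72, adjusted p = 0.0015). Slc5a12, a lactate carrier, stood at -7.22 and -6.14 against 0.45 and 0.96, at least 123-fold lower (adjusted p = 0.0015). Slc5a11, a myo-inositol carrier, stood at -3.55 and -1.06 against 4.22 and 4.26, 93-fold lower (adjusted p = 0.0029). These 3 were called with any 1 array left out. Slc5a1, the main glucose carrier, stood at 0.44 and 2.28 against 5.06 and 4.44, 10.5-fold lower (adjusted p = 0.012, and 0.1 without rtTA +DOX replicate 1). The falls of the list numbered 9 without Sox2 +DOX replicate 1, 4 without rtTA +DOX replicate 1 and 8 without rtTA +DOX replicate 2.

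Beyond the sugar carriers, Slc13a1, a sulfate carrier, stood at -5.17 and -2.5 with Sox2 and at 4.7 and 4.67 with rtTA, 367-fold lower (adjusted p = 0.0062, and 0.058 without rtTA +DOX replicate 1). Slc34a3, a phosphate carrier, stood at -6.9 and -6.22 against 0.17 and -0.04, at least 80.8-fold lower (adjusted p = 3.1e-04). Slc30a10, a manganese exporter, stood at -6.29 and -5.12 against 0.64 and 1.09, 95.1-fold lower (adjusted p = 0.0017). Slc34a3 and Slc30a10 were called with any 1 array left out. Slc1a1, a glutamate carrier, fell 7.24-fold (adjusted p = 0.0062), Slc39a5, a zinc importer, 13.3-fold (adjusted p = 0.0071) and Aqp7, a glycerol channel, 124-fold (adjusted p = 0.024). These 3 lost the call without rtTA +DOX replicate 1 (adjusted p of up to 0.064, 0.071 and 0.12). Among metal genes, 1 of 23 rose and 3 fell, beside 3.24% of all genes higher and 5.14% lower, the third fall being Slc11a2, an iron importer. The rise was Hamp, the iron hormone hepcidin, at -0.32 and 0.79 against -5.05 and -4.98, 38.1-fold higher (adjusted p = 0.0045) and called with any 1 array left out.

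Lipid handling fell at 13 of 33 members and rose at Dhrs9 alone (background 5.14% lower and 3.24% higher), with a median of -1.39. Mttp, which loads lipid onto apolipoprotein B, stood at -0.66 and 0.61 with Sox2 and at 3.99 and 3.34 with rtTA, 12.9-fold lower (adjusted p = 0.0077). Soat2, which esterifies cholesterol, fell 13.5-fold (adjusted p = 0.0088) and Fabp1, a fatty acid binding protein of proximal gut and liver, 18.1-fold (adjusted p = 0.012). Each lost the call without at least 1 array (adjusted p of up to 0.076, 0.084 and 0.074). The falls numbered 0 without Sox2 +DOX replicate 1, 1 without rtTA +DOX replicate 1 and 2 without rtTA +DOX replicate 2. Among 27 genes of fatty acid oxidation 4 fell, beside 5.14% of all genes lower, among them Vnn1, Acaa1a and Acaa1b. Fewer of this list fell without Sox2 +DOX replicate 1. Vnn1, pantetheinase, stood at -0.96 and 0.28 against 4.15 and 3.56 (18.3-fold lower, adjusted p = 0.0039) and was called with any 1 array left out. No gene of cholesterol synthesis (25 tested) or of the mitochondrial respiratory chain (32 tested) was called in the limma fit. At an unadjusted p under 0.05, 1 cholesterol gene was higher and 2 lower, and 0 respiratory genes were.

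Of 12 ileal bile acid genes 2 fell and none rose, beside 5.14% of all genes lower and 3.24% higher. Abcc2, an apical export pump, stood at -2.59 and -1.29 with Sox2 and at 2.35 and 2.16 with rtTA, 18.3-fold lower (adjusted p = 0.013), and Slc51b, a subunit of the basolateral bile acid exporter, fell 5.2-fold (adjusted p = 0.023). Both calls were lost without at least 1 array (adjusted p of up to 0.097 and 0.13). Fgf15, the ileal bile acid signal, stood at 0.52 and 2.7 against 3.41 and -0.14, with overlapping groups.

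Enzymes that modify drugs and steroids split between falls and rises. Of 36 conjugation enzymes 13 fell and 4 rose, beside 5.14% of all genes lower and 3.24% higher. The rises were the glutathione transferases Gsta2, Gsta3, Gsta4 and Gsto2, named after their values were seen. The falls included a block of UDP-glucuronosyltransferases. Ugt2b37 stood at -8.31 and -8.22 with Sox2 and at 0 and 0.04 with rtTA, at least 82.5-fold lower (log2 difference -8.28, SE 0.46, adjusted p = 2.3e-04). Ugt2b36 was at least 179-fold lower, Ugt2b38 at least 143-fold and Ugt2b5 at least 135-fold (adjusted p = 0.0012, 2.9e-04 and 3.6e-04). All 4 went to background with Sox2, and all 4 were called with any 1 array left out. A probe of one of these close relatives could bind the transcript of another, which was not tested here. The falls numbered 5 without Sox2 +DOX replicate 1, 6 without rtTA +DOX replicate 1 and 5 without rtTA +DOX replicate 2, and the rises 0 without rtTA +DOX replicate 1.

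The upstream windows of Ugt2b37 (chr5:87254789-87255038, minus strand) and Ugt2b38 (chr5:87424204-87424453, minus strand) are shown because they hold the AP-1 letters, in capitals, beginning at positions -180 and -166 relative to the start. The windows of Ugt2b36 and Ugt2b5, which fell as well, hold none of the 4 motifs. The window of Cyp3a41a (chr5:145720137-145720386, minus strand) was the 1 of 22 windows of the largest falls with the HNF4 letters, in capitals, beginning at position -95.
Ugt2b37: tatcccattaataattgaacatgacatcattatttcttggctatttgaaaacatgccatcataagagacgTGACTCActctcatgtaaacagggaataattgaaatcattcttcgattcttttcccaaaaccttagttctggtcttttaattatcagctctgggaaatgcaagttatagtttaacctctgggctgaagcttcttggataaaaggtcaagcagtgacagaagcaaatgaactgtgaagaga
Ugt2b38: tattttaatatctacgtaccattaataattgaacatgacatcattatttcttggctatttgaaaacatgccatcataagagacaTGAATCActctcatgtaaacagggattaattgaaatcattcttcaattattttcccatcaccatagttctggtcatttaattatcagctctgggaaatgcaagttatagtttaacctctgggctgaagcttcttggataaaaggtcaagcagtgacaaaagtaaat
Cyp3a41a: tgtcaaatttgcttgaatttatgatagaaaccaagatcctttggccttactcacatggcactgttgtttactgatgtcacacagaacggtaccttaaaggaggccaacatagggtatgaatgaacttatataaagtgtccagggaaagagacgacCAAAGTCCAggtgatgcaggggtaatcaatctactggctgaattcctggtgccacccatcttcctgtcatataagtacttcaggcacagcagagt

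Among 30 cytochrome P450 genes 7 fell and 4 rose, beside 5.14% of all genes lower and 3.24% higher. Cyp3a25, a steroid and drug oxidising enzyme, stood at -8.52 and -5.76 with Sox2 and at 2.9 and 2.39 with rtTA, 883-fold lower by the fitted values (log2 difference -9.79, SE 1.04, adjusted p = 0.0024). Cyp3a41a, of the same subfamily, stood at -5.69 and -3.44 against 2.72 and 2.35, 137-fold lower (adjusted p = 0.012, and 0.091 without rtTA +DOX replicate 1). Cyp2d26 fell 16.9-fold (adjusted p = 0.0037) and Cyp2d10 11.7-fold (adjusted p = 0.01, and 0.078 without Sox2 +DOX replicate 1). Cyp3a25 and Cyp2d26 were called with any 1 array left out. The rises were Cyp26b1, Cyp2a4 and Cyp2a5, given above, and Cyp2d34, named after its value was seen. The falls numbered 2 without Sox2 +DOX replicate 1 and 2 and 2 without the rtTA +DOX replicates in turn.

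**Figure D3:**
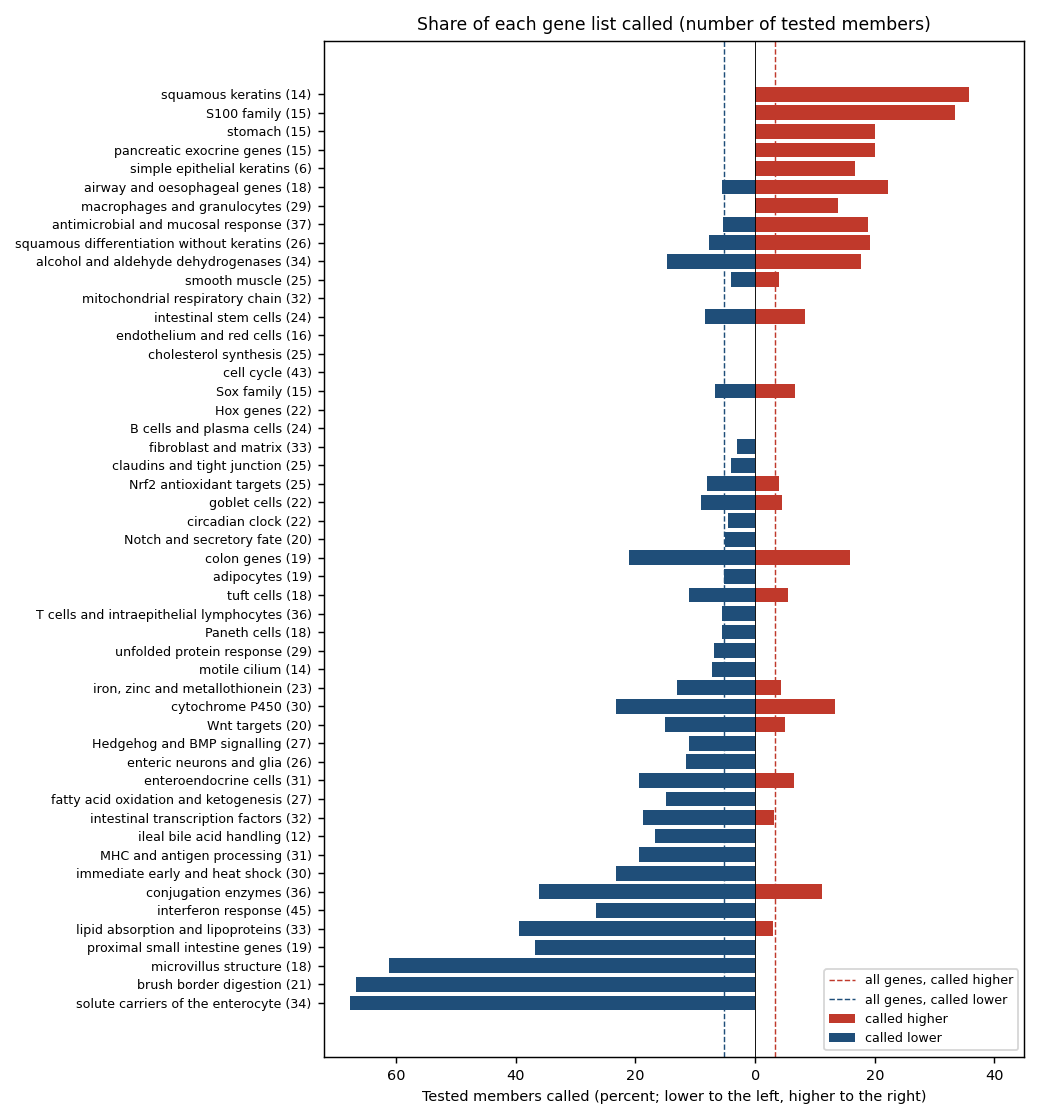
Bars give, for each gene list, the percentage of tested members called lower (blue, to the left) and higher (red, to the right) in Sox2 +DOX against rtTA +DOX, with the number of tested members in brackets. Dashed lines mark the background over all genes tested, 3.24% higher and 5.14% lower.

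Transcription factors of the intestinal epithelium fell at 6 of 32 members and rose at 1, Foxa1, with a median of -0.99. Over all genes tested 5.14% were called lower and 3.24% higher. Creb3l3, a membrane-bound factor of lipid metabolism, stood at 1.89 and 1.93 with Sox2 and at 4.82 and 4.64 with rtTA, 7.07-fold lower (adjusted p = 0.0053, and 0.056 without rtTA +DOX replicate 1). Klf4, a factor of differentiated epithelium, fell 6.77-fold (adjusted p = 0.019) and Isx, an intestinal homeobox factor, 4.02-fold (adjusted p = 0.037). Klf4 and Isx lost the call without at least 1 array (adjusted p of up to 0.12 and 0.21). The falls numbered 1, 11, 0 and 1 without Sox2 +DOX replicate 1, Sox2 +DOX replicate 2, rtTA +DOX replicate 1 and rtTA +DOX replicate 2. No Hox gene of 22 was called by the limma fit, with 2 higher and 2 lower at an unadjusted p under 0.05.

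Of 24 stem cell genes 2 were called higher and 2 lower, beside 3.24% and 5.14% of all genes, and none in either direction without Sox2 +DOX replicate 1 or without rtTA +DOX replicate 1. Ascl2, a Wnt-dependent factor of crypt base stem cells, stood at -5.24 and -4.45 with Sox2 and at -1.89 and -1.9 with rtTA, 7.73-fold lower (adjusted p = 0.0071). Olfm4, a secreted glycoprotein of the same cells, fell 11.4-fold (adjusted p = 0.036), whereas Prom1 rose 3.57-fold (adjusted p = 0.021) and Cd44 4.3-fold (adjusted p = 0.029). These 4 lost the call without at least 1 array, with adjusted p-values of up to 0.065, 0.19, 0.13 and 0.19. Lgr5, a receptor of these cells, stood at 1.6 and -0.14 against 0.12 and -0.14 and overlapped. Sp5, a Wnt target factor, fell 5.73-fold (adjusted p = 0.0039) and was called with any 1 array left out. Cell cycle genes lay above 0 at 41 of 43 members, with a median of 0.99. None was called in the limma fit, and 6 were higher and 2 lower at an unadjusted p under 0.05. Leaving out Sox2 +DOX replicate 1 brought their median to 0.31, and leaving out the other Sox2 +DOX array to 1.55.

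Of 22 goblet cell genes St6galnac1 and Klk1 fell and Sytl4 rose, beside 5.14% of all genes called lower and 3.24% higher. St6galnac1, which sialylates mucin, stood at -6.47 and -5.58 with Sox2 and at -2.45 and -2.06 with rtTA, 13.7-fold lower (adjusted p = 0.0037), and was called with any 1 array left out. Muc2, the main mucin of the gut, stood at 4.28 and 5.59 against 6.41 and 6.39 (adjusted p = 0.083). Of 18 genes of the Paneth cell list 1 was called, beside 5.14% of all genes lower. It was Guca2b, the uroguanylin precursor, 14.8-fold lower (adjusted p = 0.013). The call was lost without Sox2 +DOX replicate 1, where the log2 difference was -3.05. Of the Paneth cell markers Lyz1 stood at 6.39 and 6.15 with Sox2 and at 6.02 and 7.11 with rtTA. Mmp7 stood at 3.83 and 4.05 against 2.35 and 3.7, and Ang4 at 2.51 and 1.09 against 3.55 and 4.97.

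Among enteroendocrine genes 6 of 31 fell and 2 rose, beside 5.14% of all genes lower and 3.24% higher. Nts, neurotensin, a hormone of ileal N cells, stood at 0.86 and 2 against 4.35 and 4.12, 6.99-fold lower (adjusted p = 0.009). Insm1, a factor of endocrine precursors, stood at -0.43 and -0.57 against -4.83 and -4.13, 15.8-fold higher (adjusted p = 0.012), and Pcsk1, a prohormone convertase, rose 3.87-fold (adjusted p = 0.026). Chga fell 2.98-fold (adjusted p = 0.036), with untreated Sox2 ileum at 2.72 and 2.2 beside the 2.1 and 2.51 of Sox2 +DOX. All 4 lost the call without at least 1 array (adjusted p of up to 0.083, 0.1, 0.12 and 0.21), and the falls numbered 0 without Sox2 +DOX replicate 1, 0 without rtTA +DOX replicate 1 and 1 without rtTA +DOX replicate 2.

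Mucosal defence genes were mixed, with 7 of 37 higher and 2 lower, beside 3.24% and 5.14% of all genes. Reg1, a secreted lectin of regenerating epithelium, stood at 5.37 and 3.71 with Sox2 and at -1.26 and -0.36 with rtTA, 40.6-fold higher (adjusted p = 0.0021). Reg3a, of the same family, stood at -2.37 and -2.41 against 3.67 and 4.12, 78.2-fold lower (adjusted p = 3.1e-04). Both were called with any 1 array left out. Ccl25, the other gene that fell, was named after its value was seen. The rises numbered 2 without Sox2 +DOX replicate 1 and 1 and 1 without the rtTA +DOX replicates in turn.

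The S100 family of calcium-binding proteins rose at 5 of 15 members and fell at none (background 3.24% higher). S100g, the calbindin of calcium absorption, stood at 5.45 and 5.23 against -0.7 and 1.6, 29.6-fold higher (adjusted p = 0.007, and 0.055 without Sox2 +DOX replicate 1). S100a9 and S100a8, the subunits of calprotectin, rose 13.2-fold and at least 9.55-fold (adjusted p = 0.01 and 0.022), S100a11 4.89-fold (adjusted p = 0.01) and S100a6 4.34-fold (adjusted p = 0.014). These 4 also lost the call without at least 1 array (adjusted p of up to 0.088, 0.14, 0.086 and 0.11). The rises numbered 0 without Sox2 +DOX replicate 1, 1 without rtTA +DOX replicate 1 and 3 without rtTA +DOX replicate 2. The summed level of 29 macrophage and granulocyte genes, which include S100a8 and S100a9, was 84.1 and 96.9 with Sox2 and 70.7 and 101.2 with rtTA, with overlapping groups. The median log2 difference of that list was -0.37, with 19 members below 0 and 10 above. The macrophage marker Csf1r stood at -1.24 and -0.16 with Sox2 and at 0.63 and 0.1 with rtTA. Of that list 4 were called higher and none lower, beside 3.24% of all genes higher. The other 2 were Cd68, a lysosomal glycoprotein of macrophages, at -0.04 and -0.66 with Sox2 and -2.79 and -2.6 with rtTA (5.09-fold higher, adjusted p = 0.013, and 0.11 without rtTA +DOX replicate 1), and Cd14, a receptor for bacterial lipopolysaccharide (1.99-fold higher, adjusted p = 0.049, and 0.23 without Sox2 +DOX replicate 1). The rises of the list numbered 3 without Sox2 +DOX replicate 2 and 0 without any 1 of the other 3 arrays, and their part in the S100 rises was not tested.

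Interferon-stimulated genes fell at 12 of 45 members and rose at none (background 5.14% lower), with a median of -1.16. Oas3, a sensor of double-stranded RNA, stood at -5.43 and -4.34 with Sox2 and at -0.22 and -0.92 with rtTA, 20-fold lower (adjusted p = 0.0061). Isg15, a ubiquitin-like modifier, fell 12-fold (adjusted p = 0.012), Rtp4 7.46-fold (adjusted p = 0.011) and Usp18, which removes Isg15 from proteins, 4.6-fold (adjusted p = 0.016). All 4 lost the call without rtTA +DOX replicate 1 (adjusted p of up to 0.065, 0.087, 0.094 and 0.12). The falls numbered 1, 13, 0 and 4 without Sox2 +DOX replicate 1, Sox2 +DOX replicate 2, rtTA +DOX replicate 1 and rtTA +DOX replicate 2. Antigen presentation genes fell at 6 of 31 (background 5.14% lower). Ciita, the master factor of MHC class II, stood at -2.29 and -2.11 against 0.57 and 0.15, 5.9-fold lower (adjusted p = 0.0035), and was called with any 1 array left out. H2-Ab1 fell 3.95-fold (adjusted p = 0.029, and 0.18 without Sox2 +DOX replicate 1). The antigen presentation falls numbered 1 without Sox2 +DOX replicate 1 and 1 without rtTA +DOX replicate 1.

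The levels of lymphocyte markers were measured beside those lists. Of 36 T cell and intraepithelial lymphocyte genes 35 had a log2 difference below 0 and 2 were called lower, Cd3d and Prf1, beside 5.14% of all genes. Both calls were lost without at least 1 array (adjusted p of up to 0.2 and 0.21), and the falls numbered 7 without Sox2 +DOX replicate 2 and 0 without any 1 of the other 3 arrays. Their summed level was 13.2 and 25.4 with Sox2, 59.5 and 29.2 with rtTA and 86 and 71.5 in untreated Sox2 ileum. B cell genes summed to 36.3 and 61.9 against 69.5 and 62.4. None of the 24 B cell genes was called in the limma fit, and 0 had an unadjusted p under 0.05. The part of these cells in the falls of interferon and antigen presentation genes was not tested.

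Markers of the muscle wall and its nerves were lower too. Smooth muscle genes lay below 0 at 24 of 25 members, with a median of -1.8, and their summed level was 87.7 and 72.4 with Sox2 against 194.8 and 431.5 with rtTA. Myh11 stood at 1.15 and 1.07 against 3.58 and 3.8 (adjusted p = 0.054). Ldb3, of the contractile Z-line, fell 9.08-fold (adjusted p = 0.0068, and 0.053 without Sox2 +DOX replicate 1). The summed level of enteric neuron and glia genes was 4.64 and 3.44 against 8.4 and 12, that of fibroblast genes 41.6 and 41.4 against 66.2 and 89.9, and that of adipocyte genes 17.8 and 31.2 against 43 and 64. None of these 4 summed levels overlapped between the groups, and single genes did not overlap at 63% of those tested. The part of these 4 lists in the other results was not tested.

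Immediate early and heat shock genes fell at 7 of 30 (background 5.14% lower). Atf3, a stress-induced factor, stood at -2.27 and -0.24 against 2.69 and 3.56, 20.8-fold lower (adjusted p = 0.0073, and 0.052 without rtTA +DOX replicate 2). Jun fell 6.79-fold (adjusted p = 0.014, and 0.094 without rtTA +DOX replicate 1). The falls numbered 1, 7, 2 and 0 without Sox2 +DOX replicate 1, Sox2 +DOX replicate 2, rtTA +DOX replicate 1 and rtTA +DOX replicate 2.

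**Figure D4:**
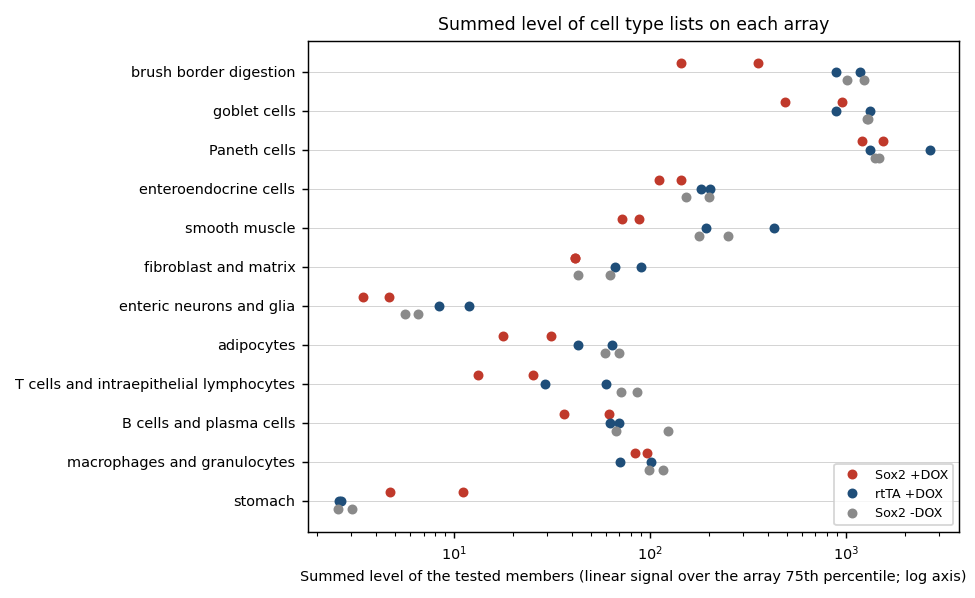
Each point is the sum over the tested members of a list of the linear signal relative to the array's 75th percentile, on a log axis, for 1 array of Sox2 +DOX (red), rtTA +DOX (blue) or Sox2 -DOX (grey). The red points lie left of the blue points for the brush border, enteroendocrine, smooth muscle, neuron, fibroblast, adipocyte and T cell lists. They lie right of the blue points for the stomach list. Single genes did not overlap between these groups at 63% of those tested.

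Sox2 +DOX was also set against the untreated ileum of the same slide. This second comparison shares the Sox2 +DOX arrays with the first, so its values are no independent check. It called 1488 of 19056 genes (7.81%). The 20 largest rises were all called in the same direction there, and 16 of the 20 largest falls. Krt6a was at least 641-fold higher than in rtTA +DOX and at least 373-fold higher than in Sox2 -DOX, Umod at least 619-fold and at least 360-fold, Lipf 363-fold and 165-fold and Sox21 97.6-fold and 71.4-fold. Among the falls Cyp3a25 was 883-fold and 488-fold lower, Slc13a1 367-fold and 458-fold, Ugt2b37 at least 82.5-fold and at least 50.4-fold and Reg3a 78.2-fold and 59.9-fold. Each of these 8 genes, named here after their values were seen, was called in both comparisons. The 4 large falls that were not called against untreated ileum were Lct, with a log2 difference of -8.98 from rtTA and -1.14 from untreated ileum (adjusted p = 0.67), Fam151a (-7.67 and -3.15, adjusted p = 0.12), Enpp7 (-7.02 and -3.59, adjusted p = 0.086) and Cyp3a41a (-7.1 and -4.51, adjusted p = 0.051). Smooth muscle genes had a median of -1.8 against rtTA and -1.36 against untreated ileum, and interferon genes -1.16 and -2.19.

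Ileum with both transgenes lay on the slide of the rtTA arrays, and its difference from rtTA called 1208 of 19056 genes (6.34%). The difference between the responses was tested as Sox2 +DOX minus Sox2xOct4 +DOX, a contrast that again lies between slides, and 495 genes (2.6%) were called. The genes that follow were named for their difference between Sox2 +DOX and rtTA +DOX, and this contrast reuses the Sox2 +DOX arrays. Lipf was 8.5 higher with Sox2 alone and 10.69 higher with both (difference -2.18, adjusted p = 0.14), and Slc37a2 7.58 and 7.38 (difference 0.2, adjusted p = 0.88). Aldh3a1, at background with rtTA, was measured in both other groups, 45.8-fold higher with Sox2 alone than with both transgenes (adjusted p = 0.0021). Pax9 stood at -6.9 and -8.12 with both transgenes, not well above background there or with rtTA, and was at least 15-fold higher with Sox2 alone than with both (adjusted p = 0.021). Among interferon genes Isg15 stood at -3.58 with Sox2 alone and -0.13 with both, a difference of -3.45 (adjusted p = 0.024).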

How the data were processed

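RNA of adult mouse ileum was hybridised to 1-colour Agilent arrays, labelled with Cy3 by linear amplification, per the labels' protocols. The submitters' processing notes name Agilent Feature Extraction 9.1, whereas the file headers name later versions that differ between slides. The deposited values used are the processed signal intensity of each spot, background-subtracted and detrended by that software, with surrogates for spots not above background, per the file headers. Spots of a probe were averaged, 1639 control spots and 31 probes with outlier flags were left out, and log2 values were set relative to each array's 75th percentile (signals of 544 to 1614). A probe was kept if some group had it well above background on each of its arrays, and the kept probe with the highest mean over the 10 arrays stood for its gene. RefSeq named 80.2% of probes, and the others kept the file's name.

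A limma 3.58.1 fit (R 4.3.3) gave each of 5 groups a mean over the 10 arrays, with Benjamini-Hochberg adjustment over 19056 genes. The fit was tested on simulated data. Named genes were Sox2, Sox21, Pou5f1, Nanog and Cdx2, the sex-linked genes, the 20 largest rises and falls and up to 4 genes of smallest p per list. The largest rises and falls were taken among called genes whose arrays did not overlap between Sox2 +DOX and rtTA +DOX. The members, lists and this rule were chosen with earlier results of these data known. A few genes that the rule names are not reported here.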

Additional observations from a re-analysis of the deposited data

Results flagged for a closer look

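For 22 of the genes named above, the difference from rtTA +DOX was not the same with Sox2 alone as with Sox2 and Oct4 together, by the limma test of Sox2 +DOX minus Sox2xOct4 +DOX. The 2 differences from rtTA share its arrays, and the contrast tested lies between slides. Over all genes tested that contrast called 495 of 19056 (2.6%). All of the 22 except Pou5f1 were named for their difference between Sox2 +DOX and rtTA +DOX. The contrast reuses the Sox2 +DOX arrays, so the directions below are not independent of that choice.

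Pou5f1, the Oct4 gene, was -10.29 with Sox2 alone relative to both transgenes (adjusted p = 5.7e-04). Epithelial genes were higher with Sox2 alone, Aldh3a1 by 5.52 (adjusted p = 0.0021), Dynap by 6.52 (adjusted p = 0.022), Pax9 by 4.99 (adjusted p = 0.021), Adh7 by 3.88 (adjusted p = 0.015), Dhrs9 by 3.2 (adjusted p = 0.0049), Krt75 by 2.62 (adjusted p = 0.013), Reg1 by 3.22 (adjusted p = 0.024) and S100a11 by 1.85 (adjusted p = 0.037). St6galnac1 was 2.48 higher (adjusted p = 0.029), having fallen further with both transgenes. Of the falls, Slc5a12 was -4.42 (adjusted p = 0.021), Slc30a10 -3.91 (adjusted p = 0.022), Slc5a4a -3.72 (adjusted p = 0.039), Slc34a3 -2.75 (adjusted p = 0.02), Ugt2b38 -2.69 (adjusted p = 0.035), Ugt2b37 -2.45 (adjusted p = 0.035), Creb3l3 -2.2 (adjusted p = 0.023) and Sp5 -1.68 (adjusted p = 0.031), each lower with Sox2 alone. The interferon genes Rtp4 at -3.96 (adjusted p = 0.0067), Oas3 at -3.77 (adjusted p = 0.02), Usp18 at -3.66 (adjusted p = 0.005) and Isg15 at -3.45 (adjusted p = 0.024) were lower with Sox2 alone as well. Some of these sizes rest on signals not well above background, and are then, as bounds, at least 279-fold for Pou5f1, at least 5.51-fold for Slc34a3, at least 15.7-fold for Slc5a12, at least 1.44-fold for Ugt2b37 and at least 3.24-fold for Ugt2b38, dim with Sox2 alone, and at least 15-fold for Pax9 and at least 1.34-fold for St6galnac1, dim with both transgenes. For Dynap and Krt75 with both transgenes, and for Slc30a10 and St6galnac1 with Sox2 alone, 1 of 2 arrays was well above background.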

How the results depend on the processing

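The number of genes higher with Sox2 was 945 after normexp and quantile normalization and 360 in a fit to only the 4 arrays, against 617. The number lower was 624 with no filter on dim probes and 576 with only the 4 arrays, against 980. With 1 array left out, the counts ranged from 92 to 574 higher and from 103 to 1100 lower. Where an arm then held 1 array, that array was assumed to vary like the other groups. Between the controls, 0 genes were called, and 2 with a variance trend, 13 with only the 4 arrays, 11 without the Oct4 group, 2 with a replicate block and 1 with a floor on the signal, and 0 with any 1 array left out. The difference of Cdx2 lay between -1.39 and 0.07 with 1 array left out, turning positive without Sox2 +DOX replicate 1. Of 124 named genes called, 39 were called whichever of the 4 arrays was left out and 85 lost the call without at least 1, and no direction turned. The replicate numbers did not pair the samples, since deviations of same-numbered arrays in the 2 groups correlated at -0.128. With a replicate block 628 genes were higher and 1042 lower, and with the rtTA +DOX numbers crossed, an alternative chosen after seeing the data, 644 and 1024. The slide block was not run, because each group compared lies on 1 slide.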

Other observations

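Genes known from other digestive organs were raised singly. Of 15 pancreatic exocrine genes 3 rose and none fell (background 3.24% higher). The digestive enzymes Cpa1, Prss2 and Pnlip were well above background on none of the 4 arrays. The pancreatic marker Cel was well above background on all 4. Gp2, a membrane glycoprotein of zymogen granules and of the M cells of the gut, stood at 4.84 and 3.38 with Sox2 and at -1.69 and -2.46 with rtTA, 72.6-fold higher (adjusted p = 0.0092, and 0.071 without Sox2 +DOX replicate 1). Rnase1, the pancreatic ribonuclease, stood at 2.65 and 2.42 against -0.6 and -1.32, 11.2-fold higher (adjusted p = 0.0092, and 0.068 without Sox2 +DOX replicate 1), and Cela1, an elastase, rose 4.06-fold (adjusted p = 0.04, and 0.23 without rtTA +DOX replicate 1). All 3 lost the call without at least 1 array.

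Colon genes split, 3 of 19 higher and 4 lower, beside 3.24% and 5.14% of all genes. Prdx6b stood at 2.94 and 2.71 against -1.26 and -0.92, 15.1-fold higher (adjusted p = 0.0027), and Car4, a membrane carbonic anhydrase, at -3.5 and -1.41 against 1.71 and 2.21, 21.3-fold lower (adjusted p = 0.0059). Both were called with any 1 array left out. Slc37a2 and Ly6g6c were the other rises and Ceacam20, Mettl7b and Slc26a3 the other falls, with Ly6g6c, Mettl7b and Slc26a3 named after their values were seen. Of 27 Hedgehog and BMP genes 3 fell, Gli3, Bmp2 and Id4, beside 5.14% of all genes lower. Gli3, the Hedgehog-regulated factor of the gut mesenchyme, stood at -4.16 and -4.36 against -2.73 and -2.5, 3.13-fold lower (adjusted p = 0.018), and the call was lost without any 1 array (adjusted p of up to 0.1).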
